A study of Mus musculus with 2 samples.

Results

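Matricellular proteins are secreted into the extracellular matrix, where they act less as scaffold than as signals to nearby cells. They bind integrins, growth factors and collagen fibres, and many of their genes are more active in embryonic, injured and fibrotic tissue than in resting tissue. Myofibroblasts are contractile, matrix-producing cells that appear during wound repair, and several of these genes are used as their markers. The 10 genes described here, Postn, Tnc, Thbs1, Thbs2, Sparc, Cthrc1, Ccn1, Ccn2, Fn1 and Fap, were taken by symbol from the 31253 features of the deposited matrices, and all 10 were present.

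The data are single-cell RNA profiles of abdominal aorta from mice infused with PPE, the usual abbreviation for porcine pancreatic elastase, which degrades elastin and is used to model abdominal aortic aneurysm (AAA). One library came from mice with a whole-body deletion of Gsdme (Gsdme-KO), the gene for the pore-forming protein gasdermin E, and the other from C57BL/6J mice (WT). Both groups received PPE, and no aorta without PPE was analysed here. The age and sex of the mice, the time after PPE, the strain background of the deletion and the number of mice pooled were not given in the sources used here. With 1 library per group there is no replicate check and no test was run. Intervals at the 95% level cover counting error only, and a difference between the libraries may be one between these animals or preparations.

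The Gsdme-KO library held 52532964 UMIs, the molecular barcodes that count captured transcripts, and the WT library held 38988898. After filtering, 8784 Gsdme-KO and 7619 WT cells remained, with medians of 4062 and 3835 UMIs per cell. Gsdme itself was counted 133 times in the Gsdme-KO library (2.55 CPM, UMIs per 1000000 UMIs) and 215 times in the WT library (5.53 CPM), a ratio of 0.46 (0.37 to 0.57). Where in the gene the deletion lies was not given, so these counts do not settle the label. Of the kept cells, 65 in each library carried a barcode that the other library also held. They made up at most 7 cells per library of each fibroblast-like or smooth muscle-like cluster, and without them no member ratio in those clusters crossed 1.5-fold.

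Cells were grouped into 25 clusters without using the 10 genes. Clusters 0 and 6 held all 8 fibroblast markers (Col1a1, Col1a2, Col3a1, Dcn, Lum, Pdgfra, Dpt and Col14a1) in over 25% of cells, and they are called fibroblast-like. They are compared by number and not as 1 class, because Abcc9, a pericyte marker, and no fibroblast marker was among the 10 leading genes of cluster 0. Cluster 0 had 863 Gsdme-KO and 596 WT cells, and cluster 6 had 673 Gsdme-KO and 354 WT cells. The smooth muscle-like cluster, led by Acta2, Tagln and Myh11, had 175 Gsdme-KO and 61 WT cells. Levels below are CPM of the UMIs of that cluster. They are set side by side for 1 gene across cells, not between genes.

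In the mm10 build and the GENCODE M21 annotation, the genes lie on 8 chromosomes. Fn1 is at chr1:71585520-71653200 on the minus strand. Fap (chr2:62500943-62574075, minus) and Thbs1 (chr2:118111876-118127133, plus) share a chromosome, as do Postn (chr3:54361109-54391037, plus) and Ccn1 (chr3:145646976-145649981, minus). Tnc is at chr4:63959785-64047015 on the minus strand. Ccn2 is at chr10:24595442-24598683 on the plus strand. Sparc is at chr11:55394500-55423183 on the minus strand, Cthrc1 at chr15:39076932-39087121 on the plus strand and Thbs2 at chr17:14665500-14694235 on the minus strand.

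For Postn, Tnc and Ccn1 a RefSeq transcript start lay within 10 bases of the annotated gene start, and their promoters are shown for that reason alone. The levels of these genes also followed one another across cell types, but some other pairs of members were closer, such as Postn and Sparc (r of 0.96). Over 30 points (15 classes or clusters in 2 libraries), Pearson's r of log2(CPM + 1) was 0.93 between Postn and Ccn1, 0.88 between Postn and Tnc and 0.88 between Tnc and Ccn1, as a description of points that share libraries and depth. Each sequence runs 5′ to 3′ from 250 bases before to 50 after the start, from the RefSeq table of GRCm38.p6. Capitals mark GGAATG, a core recognised by TEAD factors, and TATAAA, the letters of a TATA box, on either strand and at any distance from the start. The TATAAA of Tnc lies much farther from the start than those of Postn and Ccn1, so it is not called a TATA box here.
Postn promoter, chr3:54360857-54361156, plus strand: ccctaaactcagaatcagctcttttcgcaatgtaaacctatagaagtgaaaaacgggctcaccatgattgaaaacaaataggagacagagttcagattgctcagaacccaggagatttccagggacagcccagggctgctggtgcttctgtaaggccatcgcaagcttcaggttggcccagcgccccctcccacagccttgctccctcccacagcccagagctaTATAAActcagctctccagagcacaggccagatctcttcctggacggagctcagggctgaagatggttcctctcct
Tnc promoter, chr4:64046966-64047265, minus strand: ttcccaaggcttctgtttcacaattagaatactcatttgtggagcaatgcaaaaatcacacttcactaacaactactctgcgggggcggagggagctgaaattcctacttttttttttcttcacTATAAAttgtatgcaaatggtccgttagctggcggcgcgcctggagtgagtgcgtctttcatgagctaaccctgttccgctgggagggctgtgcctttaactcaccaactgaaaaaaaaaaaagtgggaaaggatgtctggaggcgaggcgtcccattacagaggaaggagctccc
Ccn1 promoter, chr3:145649936-145650235, minus strand: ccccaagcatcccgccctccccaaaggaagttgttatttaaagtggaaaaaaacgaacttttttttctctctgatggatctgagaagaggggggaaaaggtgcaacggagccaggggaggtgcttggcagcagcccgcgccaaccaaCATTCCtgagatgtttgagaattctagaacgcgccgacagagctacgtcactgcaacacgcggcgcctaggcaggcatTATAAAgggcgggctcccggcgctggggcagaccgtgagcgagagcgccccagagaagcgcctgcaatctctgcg
TATAAA or its reverse complement occurred once in each of the 3, and in 13.6% of 32851 promoters of this length. GGAATG or its reverse complement CATTCC occurred once in the Ccn1 window and in 14.7% of all promoters, and these letters were not in the Postn or Tnc window. A match is a description of letters, not of a bound site.

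Most transcripts of 9 of the 10 genes came from mesenchymal cells, and Thbs1 was the exception. Clusters 0 and 6 together held 17.5% of Gsdme-KO and 12.5% of WT cells, and 34.2% and 22.9% of all UMIs. Of all Cthrc1 UMIs, they held 91.2% in the Gsdme-KO library and 82.2% in the WT library. Of all Postn UMIs, they held 88.7% in Gsdme-KO and 86.3% in WT. Ccn2 was more divided, with 65.4% in these clusters in Gsdme-KO and 49.9% in WT, and a further 26.8% and 35.2% in the few smooth muscle-like cells. B cell-like cells, which should lack Ccn2 and Cthrc1, give a low level to read them against. Whether this level came from free RNA, doublets or the cells' own transcripts was not tested. At 1000 UMIs per cell, 0.61% of Gsdme-KO and 0.49% of WT B cell-like cells had a Ccn2 UMI. None of 163 and 204 such cells had a Cthrc1 UMI, which allows up to 2.24% and 1.79% by the exact binomial interval. The median depth before thinning was 2515 and 2195 UMIs per B cell-like cell, against 10516 and 9309 in cluster 6. For Postn the B cell-like level was 22.7 CPM in Gsdme-KO and 4.88 CPM in WT, and the T cell-like level 22.7 and 6.08 CPM, so this low level was itself higher in Gsdme-KO. Fap was at 0 in Gsdme-KO B cell-like cells, while WT B cell-like cells held 29 Fap UMIs in 3 cells, 16 of them in 1 cell.

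**Figure D1:**
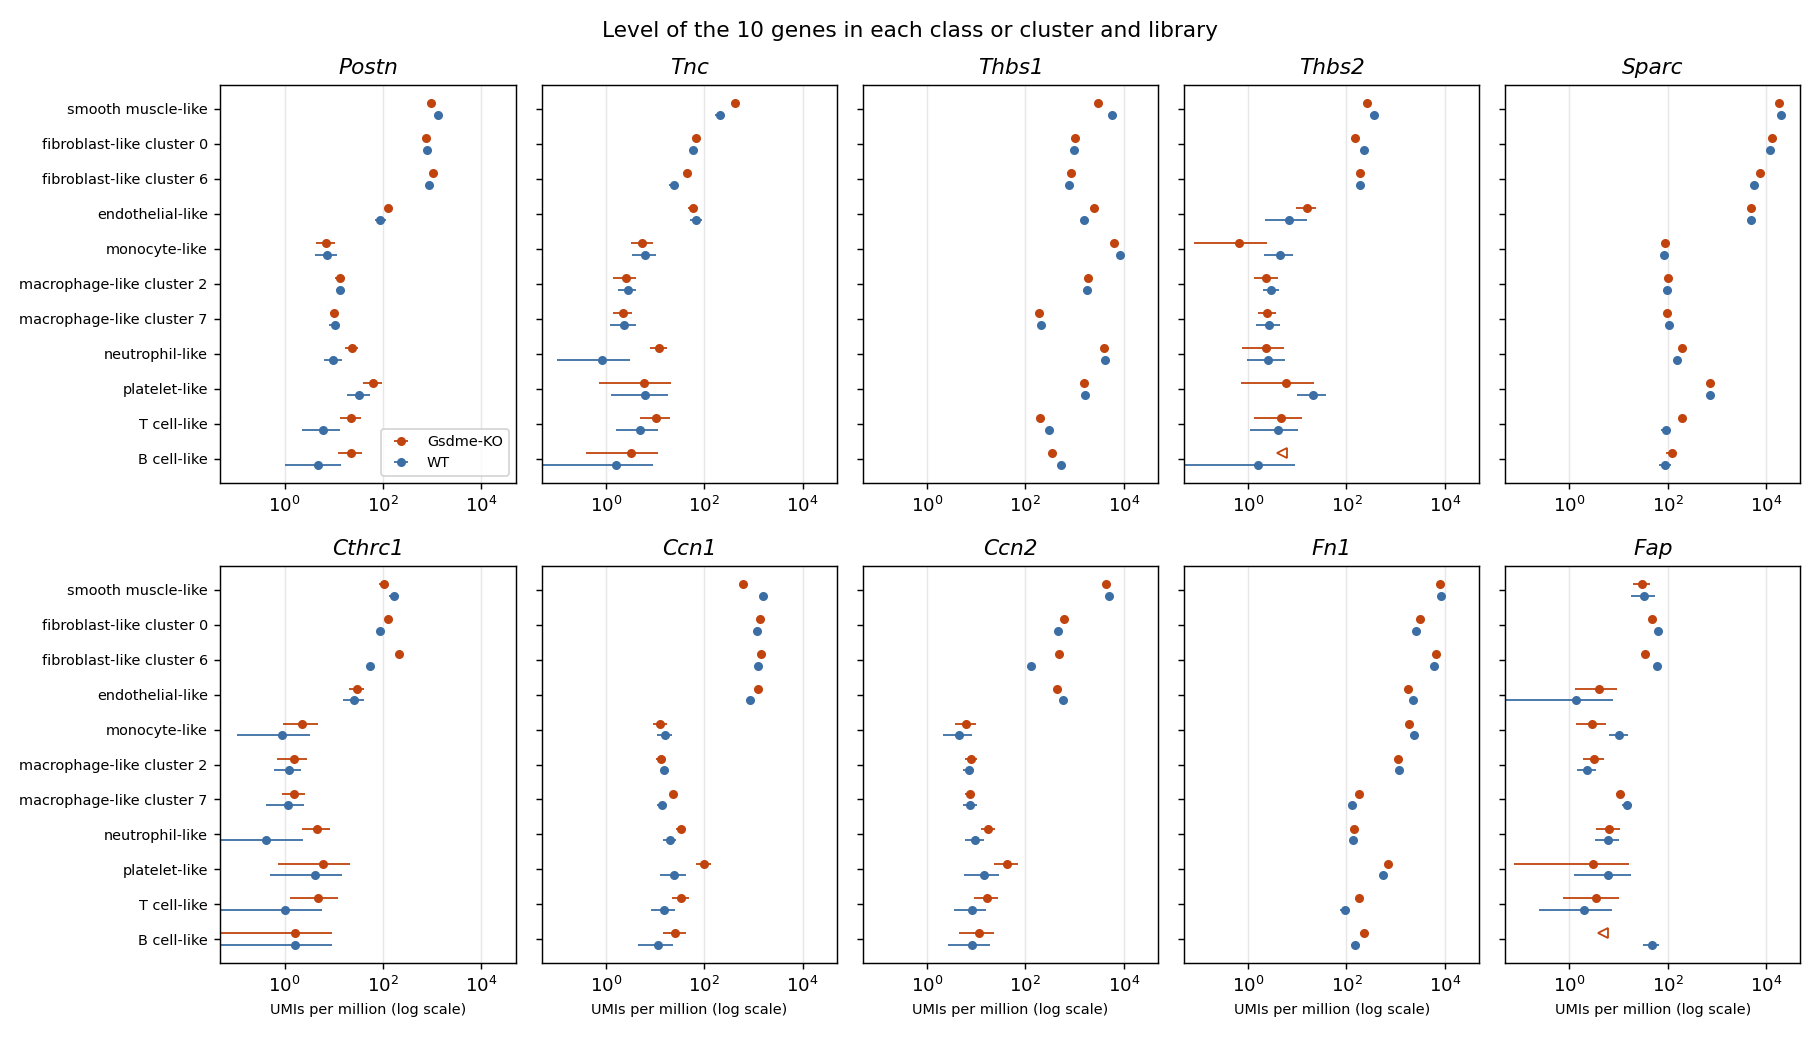
Level of each gene (CPM, log scale) in 11 classes or clusters, with Gsdme-KO above WT and 95% exact Poisson intervals. Open triangles mark the limit that a count of 0 allows. Postn, Sparc, Ccn1 and Ccn2 are high in the top 4 rows and low below them, while Thbs1 stands at 6309 in Gsdme-KO and 8408 in WT in monocyte-like cells. Both neutrophil-like clusters are drawn as 1 row.

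The thrombospondins are large calcium-binding glycoproteins that bind CD36, CD47 and latent TGF-beta, and the 2 members differed in the cells that held them. Thbs1 had 6309 CPM in monocyte-like cells of the Gsdme-KO library and 8408 CPM in those of the WT library, a ratio of 0.75. At equal depth 84.9% of Gsdme-KO and 86.5% of WT monocyte-like cells had a Thbs1 UMI, so most of these cells carried the transcript in both libraries. Thbs1 was among the 10 leading genes of this cluster although it was not used to form it. The 2 neutrophil-like clusters were unlike, with 6632 CPM in Gsdme-KO and 7644 CPM in WT in cluster 3, and 1939 and 2631 CPM in cluster 5. Cluster 3 was thus above the monocyte-like cells in Gsdme-KO and below them in WT. Smooth muscle-like cells held 2990.3 CPM in Gsdme-KO and 5740.3 CPM in WT. Among macrophage-like clusters the level was 1847 CPM in Gsdme-KO and 1751 CPM in WT in cluster 2, whose leading genes were Arg1, Spp1 and Gpnmb, but only 186 and 210 CPM in cluster 7. Thbs2 was not a myeloid transcript: monocyte-like cells held 2 UMIs in Gsdme-KO and 10 in WT. Its level was 265 CPM in Gsdme-KO and 362 CPM in WT smooth muscle-like cells, and between 150 and 225 CPM in clusters 0 and 6.

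Fn1 encodes fibronectin, the glycoprotein onto which collagen and other matricellular proteins assemble. It was highest in smooth muscle-like cells, with 7788 CPM in Gsdme-KO and 8135 CPM in WT. Cluster 6 followed with 6517 CPM in Gsdme-KO and 6000 CPM in WT, and nearly every cell of it had a UMI at equal depth (99.0% and 97.5%). Monocyte-like cells held 1899 CPM in Gsdme-KO and 2408 CPM in WT, which their intervals did not separate from endothelial-like cells in either library. Fn1 and Thbs1 were thus both carried by mesenchymal and myeloid cells, and over the 30 points their r was 0.53, as a description.

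Sparc, a collagen-binding glycoprotein needed for normal fibril assembly, had one order of cells in both libraries. Smooth muscle-like cells held 18459.8 CPM in Gsdme-KO and 20317 CPM in WT. Cluster 0 held 13221 CPM in Gsdme-KO and 11835 CPM in WT, cluster 6 held 7631 and 5771 CPM, and endothelial-like cells 4915 and 4831 CPM. Each step in that order was outside the counting intervals. The genes most like Sparc over the 30 points were Bgn, Serpinh1 and Igfbp7, each with r = 0.99, among 11990 genes searched.

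In fibroblast-like cluster 6, Ccn2 and Cthrc1 were both over 3-fold higher in Gsdme-KO. Ccn2 encodes connective tissue growth factor, a CCN family protein induced by TGF-beta and by mechanical load. It was counted 3868 times in Gsdme-KO cells (483 CPM) and 459 times in WT cells (131 CPM), a ratio of 3.69 (3.35 to 4.07). Cthrc1 encodes a secreted collagen triple helix repeat protein that marks injury-activated fibroblasts. It had 1670 UMIs in Gsdme-KO cells (209 CPM) and 195 in WT cells (55.6 CPM), a ratio of 3.75 (3.23 to 4.37). The shares of cells moved the same way, so the higher totals did not come from a few cells alone. With each cell thinned to 1000 UMIs, 22.2% of 672 Gsdme-KO cells (19.1 to 25.5) and 10.2% of 353 WT cells (7.25 to 13.8) had a Ccn2 UMI. For Cthrc1 the shares were 12.2% (9.82 to 14.9) in Gsdme-KO and 4.53% (2.61 to 7.26) in WT. Before thinning they were 38.8% and 21.2%. Both genes also met in the same cells: of Gsdme-KO cells with a Cthrc1 UMI, 51.2% had a Ccn2 UMI (39.9 to 62.4), against 18.1% of those without (15.1 to 21.5).

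Tnc and Fap also passed 1.5-fold in cluster 6, in opposite directions and on far fewer molecules. Tnc encodes tenascin C, a large anti-adhesive glycoprotein of healing wounds. It had 361 UMIs in Gsdme-KO cells (45.1 CPM) and 84 in WT cells (24.0 CPM), a ratio of 1.88 (1.48 to 2.42). These UMIs sat in few cells, since the top 1% of cells by Tnc held 50.1% of them in Gsdme-KO and 75% in WT, and the intervals of the shares of thinned cells with Tnc overlapped (2.08% in Gsdme-KO and 1.42% in WT). Fap encodes fibroblast activation protein, a membrane serine protease that marks fibroblasts of wounds and tumours. It was lower in Gsdme-KO, with 279 UMIs (34.8 CPM) against 217 UMIs (61.9 CPM) in WT, a ratio of 0.56 (0.47 to 0.68). So 3 of the 10 genes were at least 1.5-fold higher in Gsdme-KO and 1 at least 1.5-fold lower. Among the 8389 genes measured in cluster 6, 4.33% were that much higher and 9.50% that much lower. At 2-fold, Ccn2 and Cthrc1 remained as the 2 higher members and none was lower, where 1.42% of genes were that much higher and 2.23% that much lower. The median log2 ratio was 0.22 over the members and -0.10 over all those genes.

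**Figure D2:**
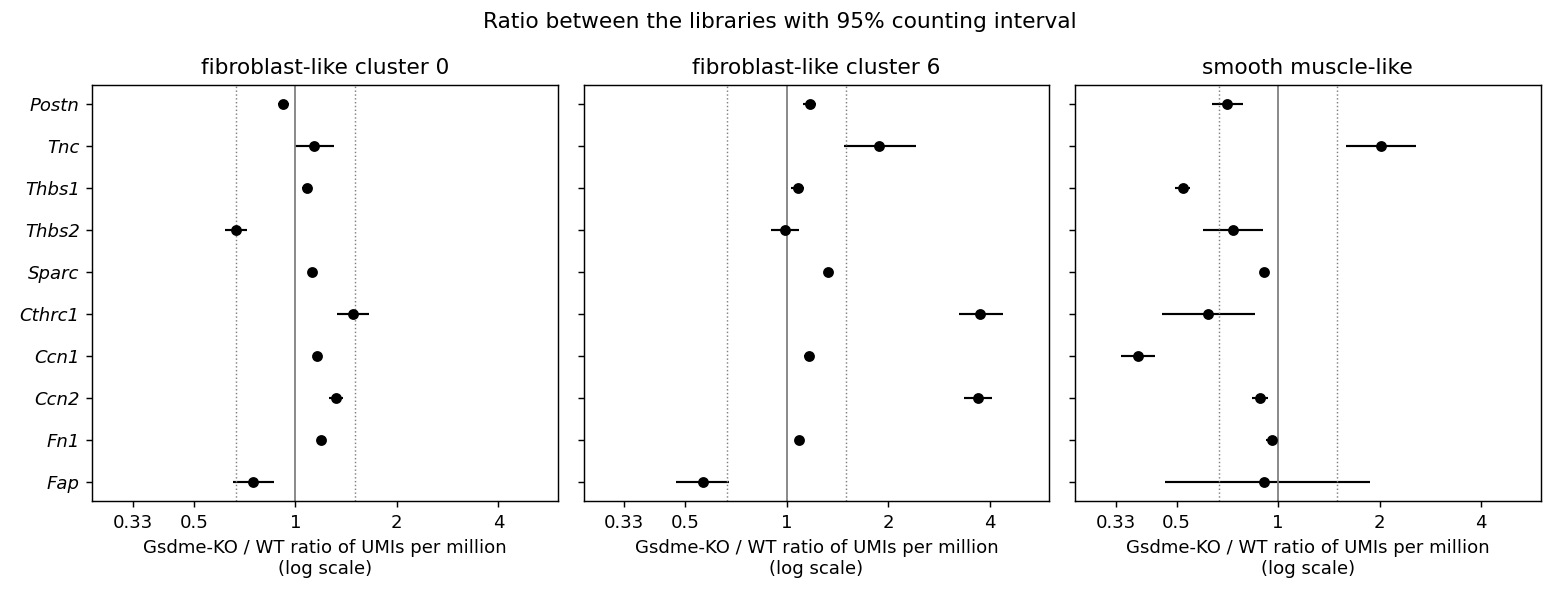
Ratio of Gsdme-KO over WT for each gene (log axis) in 3 clusters, with 95% counting intervals, a line at 1 and dotted lines at 1.5-fold either way. Ccn2 and Cthrc1 stand at 3.69 and 3.75 in fibroblast-like cluster 6, and Ccn1 and Thbs1 at 0.38 and 0.52 in smooth muscle-like cells.

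The remaining members differed little in cluster 6. Ccn1, a heparin-binding CCN protein and immediate early gene, had 1445 CPM in Gsdme-KO and 1244 CPM in WT. Postn encodes periostin, which promotes collagen cross-linking, and had 1023 CPM in Gsdme-KO and 876 CPM in WT. Sparc was 1.32 times its WT level, and Thbs2 (184 and 187 CPM), Thbs1 (843 and 782 CPM) and Fn1 lay within 1.1-fold. Fibroblast markers summed to 38715 CPM in Gsdme-KO and 38389.8 CPM in WT in this cluster, and smooth muscle markers to 30.6 and 11.4 CPM. In the shallow, unnamed cluster 17, which also held all 8 fibroblast markers, the Ccn2 ratio was 0.57. Macrophage markers summed to 401 CPM in Gsdme-KO and 652 CPM in WT, in cluster 6, and the part of these cells in the ratios was not tested.

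In fibroblast-like cluster 0 the members were closer together. None was at least 1.5-fold higher in Gsdme-KO and 1, Thbs2, was at least 1.5-fold lower, where 3.42% of 8271 measured genes were that much higher and 8.62% that much lower. Thbs2 had 150 CPM in Gsdme-KO and 225 CPM in WT, a ratio of 0.67 (0.62 to 0.72). Cthrc1 lay just inside the threshold with 129 CPM in Gsdme-KO and 86.7 CPM in WT, a ratio of 1.48 (1.33 to 1.65). Ccn2 had 622 CPM in Gsdme-KO and 471 CPM in WT, a ratio of 1.32. Fap was 47.6 CPM in Gsdme-KO and 63.4 CPM in WT, a ratio of 0.75. With TMM factors, which scale the libraries on most genes, Thbs2 no longer passed 1.5-fold (0.75) and Cthrc1 did (1.66). Postn, at 740.4 CPM in Gsdme-KO and 803 CPM in WT, had a ratio of 0.92, and of 1.03 with those factors. No member passed 2-fold in cluster 0, where 0.798% of genes were that much higher and 1.72% that much lower. The median log2 ratio was 0.17 over the members and -0.12 over all measured genes.

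Cluster 0 was not uniform, and most members were higher in 1 of its parts than in its largest part. At Leiden resolution 2, also run without the 10 genes, its largest piece was a finer cluster numbered 0. The others were finer cluster 28, with 160 Gsdme-KO and only 31 WT cells, finer cluster 17, and the cells it shared with finer cluster 6. Finer cluster 17 had 82 Gsdme-KO and 84 WT cells, which were 9.50% (7.63 to 11.7) of the Gsdme-KO cells of cluster 0 and 14.1% (11.4 to 17.1) of the WT cells. In both libraries 8 of the 10 members were at least 1.5-fold higher there than in finer cluster 0, where 3.75% of 8312 measured genes were. This split was looked at after the values were seen, and finer cluster 17 because members were high in it. The 8 of 10 is therefore a description of that choice and no support.

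The contrast was largest for Tnc, with 331 CPM in finer cluster 17 and 26.6 CPM in finer cluster 0 of the Gsdme-KO library, and 293 and 10.1 CPM in the WT library. Thbs2 followed, with 685 and 103 CPM in Gsdme-KO and 779 and 108 CPM in WT. Fap was 160 and 35.0 CPM in Gsdme-KO and 164 and 32.5 CPM in WT. Postn, Cthrc1, Ccn2, Thbs1 and Fn1 were also higher there, by 1.78-fold to 4.52-fold in either library. Sparc and Ccn1 were within 1.3-fold. Ccn1 was higher in finer cluster 28, with 1686 CPM in Gsdme-KO and 2054 CPM in WT, than in finer cluster 17, with 1266 and 1317 CPM. The same cells were higher in part of a list of myofibroblast and activated fibroblast genes. Of its 24 measured genes, 13 were at least 1.5-fold higher in both libraries, where 3.75% of all measured genes were, and 1, Il11, was lower. Col8a1, a short-chain collagen of the artery wall, had 3334 and 165 CPM in Gsdme-KO and 2402 and 89.2 CPM in WT. Acta2, smooth muscle actin, had 89.4 and 24.7 CPM in Gsdme-KO and 34.4 and 18.8 CPM in WT. Of the other contractile genes, Tagln and Tpm1 also passed 1.5-fold in both libraries. Myl9, Tpm2 and Cald1 did so in Gsdme-KO only, with ratios of 0.91, 1.23 and 1.35 in WT, and Cnn1 was not measured. The list genes could enter the clustering and the members were measured in the cells clustered, so these contrasts are a description of the cells and no test.

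**Figure D3:**
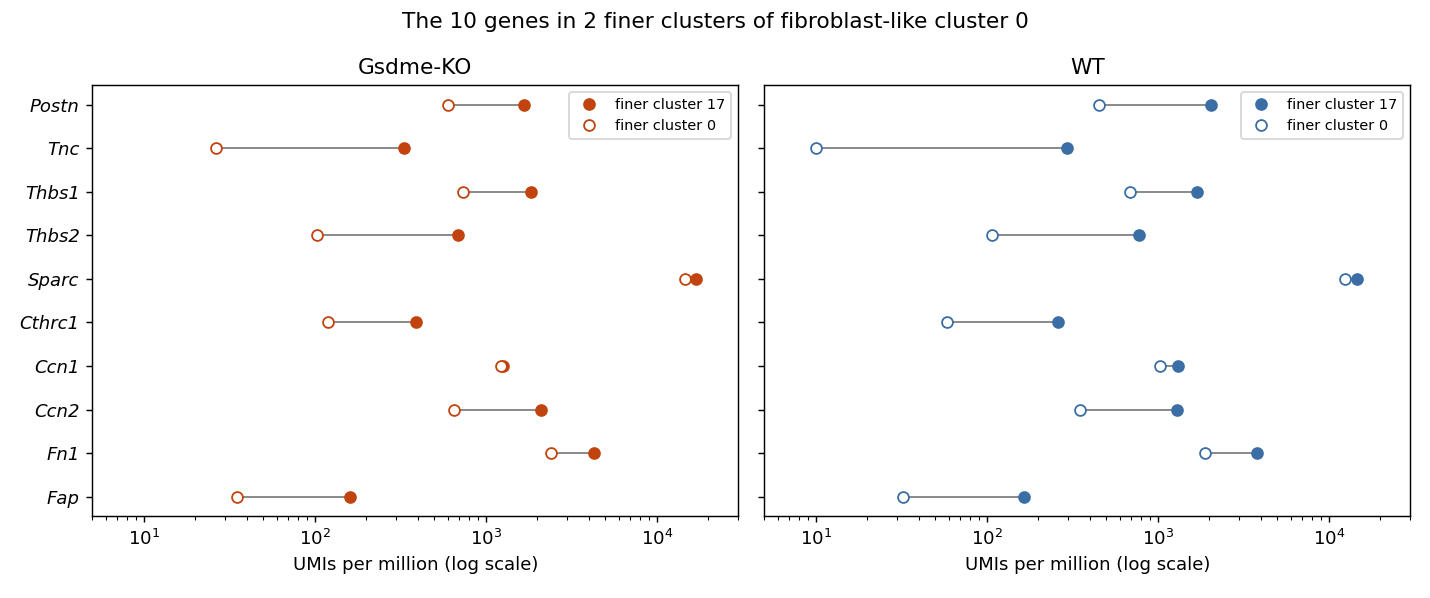
Level of the 10 genes (CPM, log scale) in finer cluster 17 (filled) and finer cluster 0 (open) of fibroblast-like cluster 0, with Gsdme-KO on the left and WT on the right. In both libraries all genes but Sparc and Ccn1 lie well to the right in finer cluster 17.

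Within these finer clusters Ccn2 and Cthrc1 were again higher in Gsdme-KO, while Thbs2 and Fap were closer to 1 in these 2 than over the whole of cluster 0. Ccn2 was 656 CPM in Gsdme-KO and 352 CPM in WT in finer cluster 0, a ratio of 1.86 (1.75 to 1.98). In finer cluster 17 it was 2107 CPM in Gsdme-KO and 1286 CPM in WT, a ratio of 1.64 (1.52 to 1.76). Cthrc1 had ratios of 2.06 (1.76 to 2.41) in finer cluster 0 and 1.5 (1.27 to 1.78) in finer cluster 17. The largest ratio in finer cluster 0 was that of Tnc, 2.63 (1.83 to 3.87), on 160 Gsdme-KO and 37 WT UMIs. Tnc had a ratio of 1.13 in finer cluster 17 and 1.14 over the whole of cluster 0. Postn had ratios of 1.33 in finer cluster 0 and 0.82 in finer cluster 17. Of the remaining cells of cluster 0, those in finer cluster 6 (43 Gsdme-KO and 41 WT cells) had lower Ccn2 in Gsdme-KO. Its level there was 61.2 CPM in Gsdme-KO and 148 CPM in WT, a ratio of 0.41 (0.26 to 0.65). Cthrc1 was higher in Gsdme-KO in those cells, with a ratio of 2.19 (1.07 to 4.85) on 30 Gsdme-KO and 11 WT UMIs. In finer cluster 28 the ratios were 1.86 (1.08 to 3.47) for Ccn2 and 5.45 (2.08 to 20.3) for Cthrc1. That Cthrc1 ratio rested on 144 Gsdme-KO and 4 WT UMIs. Neither group had the number of cells per library asked of a measured group. Thbs2, lower over the whole of cluster 0, had ratios of 0.96 and 0.88 within finer clusters 0 and 17, and Fap 1.08 and 0.97. In finer cluster 28 both genes were lower in Gsdme-KO, with Thbs2 at 66.3 CPM in Gsdme-KO and 139.5 CPM in WT, a ratio of 0.48 (0.34 to 0.67), and Fap at 32.5 and 100.5 CPM, a ratio of 0.32 (0.22 to 0.50). In the cells of cluster 0 in finer cluster 6 both ratios were 0.71. Finer cluster 28 made up 18.5% of the Gsdme-KO and 5.20% of the WT cells of cluster 0, and the part of these shares in the ratios of the whole cluster was not tested. In the whole cluster 6 the Fap ratio was 0.56, and the Fap ratio was 0.61 (0.50 to 0.74) within its main finer cluster.

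**Figure D4:**
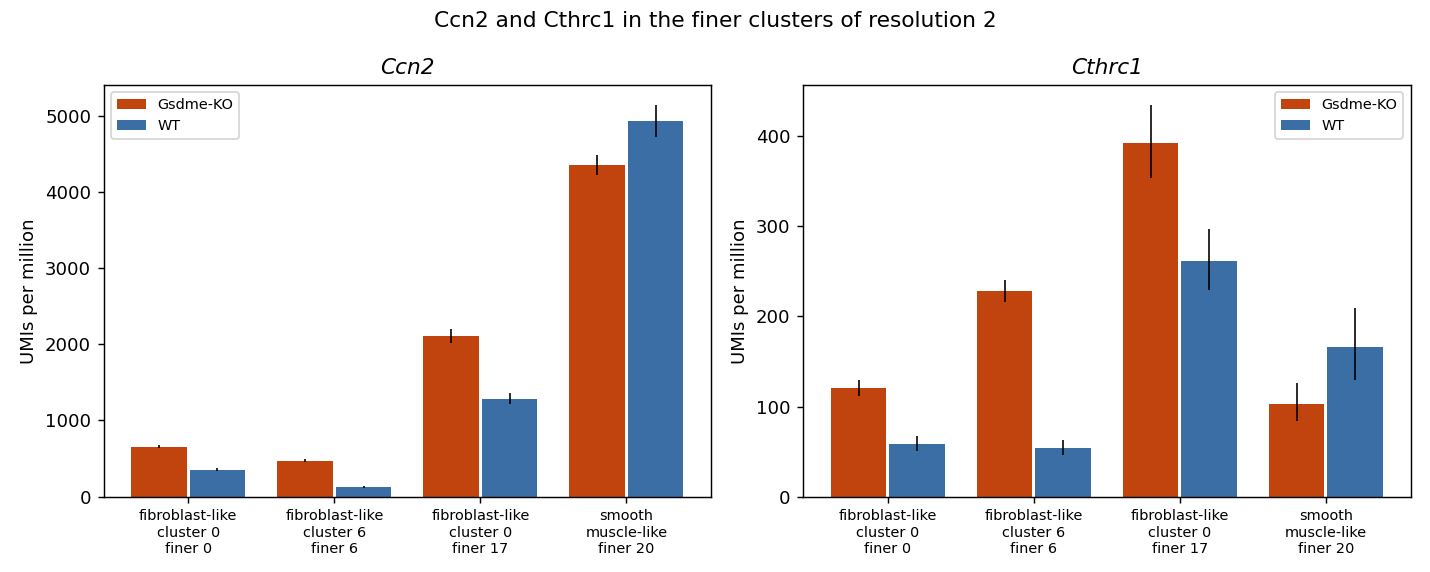
Level of Ccn2 and Cthrc1 (CPM) in the finer clusters with at least 50 cells in each library, Gsdme-KO left of WT, with 95% exact Poisson intervals. Both genes are higher in Gsdme-KO in the 3 fibroblast-like groups, by 1.5-fold to 4.2-fold, and not in smooth muscle-like cells.

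In smooth muscle-like cells Ccn1, Thbs1 and Cthrc1 were lower in Gsdme-KO and Tnc was higher. Of the 10 members, 1 was at least 1.5-fold higher in Gsdme-KO and 3 at least 1.5-fold lower, where 12.8% of 5925 measured genes were that much higher and 12.1% that much lower. Ccn1 had 571 UMIs in Gsdme-KO cells (606 CPM) and 675 in the fewer WT cells (1577 CPM), a ratio of 0.38 (0.34 to 0.43). Thbs1 had 2990.3 CPM in Gsdme-KO and 5740.3 CPM in WT, a ratio of 0.52 (0.49 to 0.55). Cthrc1 had 103 CPM in Gsdme-KO and 166 CPM in WT, a ratio of 0.62 (0.45 to 0.86). Tnc was the member on the other side, with 414 CPM in Gsdme-KO and 206 CPM in WT, a ratio of 2.01 (1.59 to 2.57). Ccn2 had 4353 CPM in Gsdme-KO and 4930 CPM in WT, a ratio of 0.88, so the Ccn2 difference of the fibroblast-like clusters was not present here. The median log2 ratio was -0.31 over the members and -0.02 over all measured genes.

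The marker sums of the smooth muscle-like cluster also differed between the libraries. Fibroblast markers summed to 34378 CPM in Gsdme-KO and 57674 CPM in WT, smooth muscle markers to 8830 and 6046 CPM and pericyte markers to 2544 and 1512 CPM. Kcnj8 was at 0 in WT. No marker of the fibroblast list was at 0 in either library. The fibroblast list holds collagen genes such as Col1a1, so its sum moves with collagen level as well as with the mix of cells. Whether that mix differed, and its part in the member ratios, was not tested. At equal depth the share of cells with Ccn1 was 36.3% (28.5 to 44.7) in Gsdme-KO and 51.9% (37.8 to 65.7) in WT, and those intervals overlap.

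**Figure D5:**
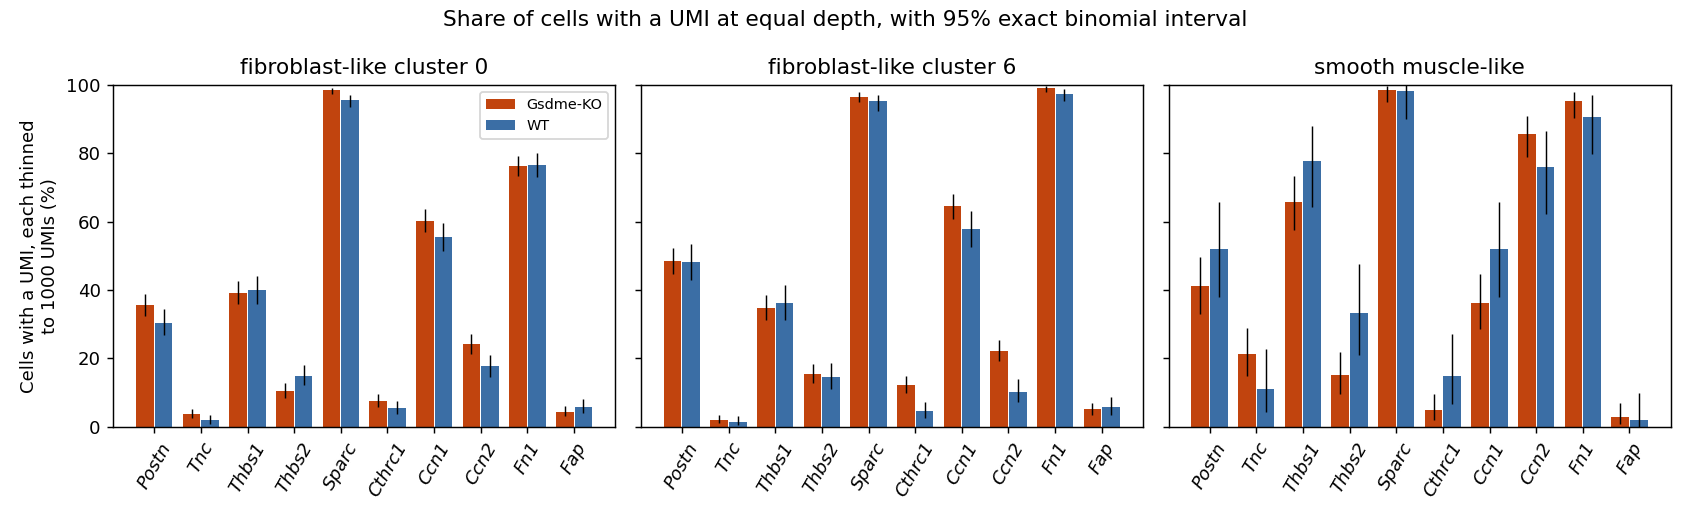
Share of cells with a UMI of each gene after thinning every cell to 1000 UMIs, Gsdme-KO left of WT, with 95% exact binomial intervals. In fibroblast-like cluster 6 the intervals are apart for Ccn2 (22.2% and 10.2%) and Cthrc1 (12.2% and 4.53%).

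In endothelial-like cells 8 members were measured, of which 1, Thbs1, was at least 1.5-fold higher in Gsdme-KO and none that much lower, where 7.17% and 10.7% of 7880 genes were. Thbs1 had 2542 CPM in Gsdme-KO and 1589 CPM in WT, a ratio of 1.60, but 1 Gsdme-KO cell held 598 of its 3115 UMIs. These cells held Ccn1 at 1222 CPM in Gsdme-KO and 867 CPM in WT, a ratio of 1.41. Their Ccn2 was 449 CPM in Gsdme-KO and 597 CPM in WT, a ratio of 0.75, so these 2 CCN genes did not share a direction there. Tnc had 58.7 CPM in Gsdme-KO and 68.3 CPM in WT endothelial-like cells, whose intervals overlapped those of fibroblast-like cluster 0 in each library. Postn had 128 CPM in Gsdme-KO and 88.8 CPM in WT, below both fibroblast-like clusters. In monocyte-like cells none of the 4 measured members passed 1.5-fold, where 5.75% of genes were that much higher and 5.73% that much lower. In neutrophil-like cells Postn, Ccn1 and Ccn2, 3 of 6 measured, were at least 1.5-fold higher in Gsdme-KO, where 5.5% of genes were that much higher and 7.6% lower. Their levels there were at most 33.6 CPM in Gsdme-KO and 20.2 CPM in WT, each above its level in the B cell-like and T cell-like cells that should lack them, with overlapping counting intervals.

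Over all cells together 6 of the 10 genes were at least 1.5-fold higher in Gsdme-KO and none that much lower, where 4.55% of 8710 measured genes were that much higher and 3.58% that much lower. Cthrc1 led with 61.7 CPM in Gsdme-KO and 20.7 CPM in WT, a ratio of 2.98. Tnc (2.02), Ccn2 (1.90), Ccn1 (1.68), Sparc (1.64) and Postn (1.52) followed. Thbs1 had 1353 CPM in Gsdme-KO and 1667 CPM in WT, a ratio of 0.81. For Postn, Sparc and Ccn1 the ratios within clusters 0 and 6 were between 0.92 and 1.32. These sums over all cells move with the share of fibroblast-like cells, 17.5% in Gsdme-KO and 12.5% in WT, and with what each cell holds.

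Other genes of the same pathways were counted in the 2 fibroblast-like clusters from 7 lists. Among myofibroblast and activated fibroblast genes, 19 of 28 were measured in cluster 6, of which 7 were at least 1.5-fold higher in Gsdme-KO and 1 lower, with a median log2 ratio of 0.44. Among all genes measured there 4.33% were higher and 9.50% lower. Il11, a cytokine that drives fibroblast activation, had 63.7 CPM in Gsdme-KO and 20.0 CPM in WT. Col8a1 had 187 CPM in Gsdme-KO and 65.0 CPM in WT. Inhba, which encodes the activin A subunit, had 51.2 and 21.1 CPM. Mmp11, a stromelysin, was the lower one, with 32.0 CPM in Gsdme-KO and 89.3 CPM in WT. In cluster 0, 3 of 23 were higher and 3 lower, beside 3.42% and 8.62% of all genes, with Il11 at 632 UMIs in Gsdme-KO and 54 in WT, a ratio of 6.38, and Mmp11 at 31.9 and 92.6 CPM. Il11 was higher and Mmp11 lower in Gsdme-KO in both clusters. Within the finer cluster 0 of cluster 0, Il11 had 37.8 CPM in Gsdme-KO and 9.82 CPM in WT. Finer cluster 28 made up 18.5% of the Gsdme-KO and 5.20% of the WT cells of cluster 0. The part of these shares in the ratio of 6.38 was not tested.

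Of 24 other matricellular genes, 17 were measured in cluster 0, of which 1 was at least 1.5-fold higher and 6 lower, with a median log2 ratio of -0.41, beside 3.42% and 8.62% of all measured genes. In cluster 6, 15 were measured, of which 2 were higher and 5 lower, beside 4.33% and 9.50% of all, so lower genes outnumbered higher ones in the list and among all genes alike. Tgfbi, a secreted integrin ligand, had 98.4 CPM in Gsdme-KO and 234 CPM in WT in cluster 0, and 20.5 and 66.2 CPM in cluster 6. It is also counted among the TGF-beta response genes below. Macrophage markers in cluster 0 summed to 303 CPM in Gsdme-KO and 547 CPM in WT, and their part in these ratios was not tested. Sparcl1, the nearest relative of Sparc, had 144 CPM in Gsdme-KO and 277 CPM in WT in cluster 0. Ccn5, a CCN protein without the C-terminal domain, was higher, with 528 CPM in Gsdme-KO and 332 CPM in WT in cluster 0 and 34.8 and 15.1 CPM in cluster 6. Sparc and Sparcl1 thus differed between the libraries in opposite directions in cluster 0.

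Target genes of the 2 pathways that act on Ccn1 and Ccn2 are read against the same shares of all genes, 3.42% higher and 8.62% lower in cluster 0 and 4.33% and 9.50% in cluster 6. Of 20 YAP TAZ response genes, 13 were measured in each cluster, none passed 1.5-fold in cluster 0, and 1, the tissue factor gene F3, was higher in cluster 6 (148 CPM in Gsdme-KO and 63.9 CPM in WT). Of 16 TGF-beta response genes, 3 were higher and 1 lower in cluster 0. In cluster 6, 2 of 14 were higher and 1 lower, with Pmepa1, a feedback inhibitor of TGF-beta signalling, at 446 CPM in Gsdme-KO and 263 CPM in WT.

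Receptors and collagens were counted in the same way. Of 18 integrin genes, 10 were measured in cluster 6, of which none was higher and 4 lower, beside 4.33% and 9.50% of all genes, with a median log2 ratio of -0.56. Itga11, a collagen-binding subunit, had 17.6 CPM in Gsdme-KO and 35.6 CPM in WT. In cluster 0, 1 of 12 was higher and 1 lower. Of 15 other receptor genes, 14 were measured in each cluster. In cluster 0, 1 was higher and 3 lower, and in cluster 6, 3 were higher and 2 lower. Egfr had 268 CPM in Gsdme-KO and 465 CPM in WT in cluster 0, and 249.8 and 461 CPM in cluster 6. None of 12 fibrillar and network collagen genes passed 1.5-fold in either fibroblast-like cluster, but 7 of 12 were lower in smooth muscle-like cells, beside 12.1% of all genes there, where Col1a1 had 17067 CPM in Gsdme-KO and 29171 CPM in WT.

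Patterns over the 30 points placed the members beside matrix genes. The 3 genes with the highest r were Col5a1, Lox and Hoxc9 for Postn (0.98, 0.98 and 0.97). They were Lum, Col1a2 and Islr for Thbs2 (0.97, 0.96 and 0.95), and Igfbp7, Col8a1 and Bgn for Ccn2 (0.98, 0.97 and 0.97). For Thbs1 they were Inhba, Wsb2 and Tmem38b, with lower values (0.85, 0.82 and 0.76). Between Thbs1 and the other members r ranged down to 0.11, with Fap. Among the 8 members other than Thbs1 and Fap, r was between 0.71 (Ccn1 and Fn1) and 0.96 (Postn and Sparc), and for Fap with those 8 it was between 0.40 and 0.70.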

How the data were processed

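Abdominal aortas were digested with collagenase I and DNase I and single cells were profiled with BD Rhapsody, per the labels' protocols. The authors deposited 1 matrix of raw whole-number counts (genes by barcodes) for each library. That these are UMI counts follows from the platform. CASAVA 1.8 and STARsolo, with the build mm10, are listed in the submitters' processing notes, without settings. The lowest total per barcode was 500 in the deposited matrices. Cells with at least 500 UMIs, 250 genes and at most 25% mitochondrial UMIs were kept, without doublet removal, since Scrublet marked only 1 cell. After scaling to 10000 UMIs per cell, 2000 variable genes, 30 components, 15 neighbours and Leiden clustering at resolution 1 (scanpy 1.11.5) gave 25 clusters. A cluster was named by the list with the highest mean log2 fold, of at least 0.5, among lists with at least 3 markers detected in 25% of cells. A cluster with a median UMI count under 0.333 of its library's, and no marker of its list among its 10 leading genes, stayed unnamed.

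Counts were summed per cluster or class and library. Ratios carry exact conditional binomial, sums exact Poisson and shares Clopper-Pearson intervals. A gene counted as measured with a mean of 10 CPM and 30 UMIs, in groups of at least 50 cells per library. Every member was eligible to be named in each measured group, and from each list up to 3 genes each way past 1.5-fold were eligible. Not every such value is printed. Among those past 1.5-fold left out are Sparc in dendritic-like cells (ratio 3.33) and T cell-like cells (2.18), and Ccn1 in platelet-like cells (4.01). The ratio procedure was run on counts simulated by independent Poisson draws, where its intervals covered the true ratio for 95.3% to 96.3% of genes. Those draws do not clump UMIs in few cells, so this says nothing of such clumping. Of 200 simulated 2-fold changes, the interval lay on the right side of 1 for 100% in cluster 0 and 98.5% in cluster 6. In smooth muscle-like cells it did so for 81.5%. The planned comparison of 1 fibroblast-like class was made by cluster number instead. Members, lists and comparisons were chosen with earlier results of these data known. TMM factors came from edgeR 4.0.16.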

Additional observations from a re-analysis of the deposited data

Results flagged for a closer look

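Thbs1 passed 1.5-fold in opposite directions in different cells, a contrast that was not tested. The ratio of Gsdme-KO over WT was 1.60 in endothelial-like cells, 0.52 in smooth muscle-like cells and 0.61 in macrophage-like cluster 10. In endothelial-like cells 1 Gsdme-KO cell held 598 Thbs1 UMIs, the top 1% of cells held 29.3% of them in Gsdme-KO and 10.6% in WT, and the ratio was 1.07 as a mean over cells.

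Cthrc1 likewise had a ratio of 3.75 in fibroblast-like cluster 6 and 0.62 in smooth muscle-like cells, where it rested on 97 Gsdme-KO and 71 WT UMIs. That difference was not tested either. Both were looked for among cells whose level was at least 10% of the gene's highest.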

How the results depend on the processing

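No paired analysis was possible because each group had 1 library. In fibroblast-like cluster 6 the count of 3 members at least 1.5-fold higher in Gsdme-KO held to within 1.5 times under each alternative that gave a value, and the 1 lower, Fap, became 0 with cells thinned to 1000 UMIs (ratio 0.78) and at a fold of 2. Its median log2 ratio of 0.22 was 0.36 with TMM factors, 0.37 with median-of-ratios factors and 0.16 as a mean over cells. Across alternatives the Ccn2 ratio ranged between 2.78 and 4.10 and the Cthrc1 ratio between 2.82 and 4.16. In cluster 0 the count of higher members was 0. It was 1 with at most 10% mitochondrial UMIs, with members among the variable genes, with TMM or median-of-ratios factors and after thinning. It was 2 as a mean over cells, and 2 at Leiden resolution 0.5, where the value is that of clusters 0 and 6 merged. The count of lower members, 1, became 0 under each of these and at a fold of 2. The cluster 0 median of 0.17 was 0.34 with either set of factors. TMM and median-of-ratios factors move every ratio of a cluster by the same amount.

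Thbs1 in T cell-like cells had a ratio of 1.40 without the highest Scrublet scores, Ccn1 in macrophage-like cluster 10 was 1.13 after thinning and Fn1 in macrophage-like cluster 18 was 1.04 without the highest Scrublet scores, against 0.65, 0.63 and 0.33 with all cells at full depth, and the cause was not tested. Of 372 recomputed ratios of members that passed 1.5-fold, 338 still did. The 372 include 66 over all cells, of which 66 still did. Some of those could not change, since another clustering leaves the sum over all cells as it was. The count is thus partly fixed in advance. Resolution 0.5 merged clusters 0 and 6, so it gave no value for cluster 6 and none for cluster 0 alone. Equal weighting of the fibroblast-like clusters was not run because they were compared one by one. Leaving out barcodes found in both libraries was chosen after seeing the data. The values with few UMIs, such as Fap and Tnc, are limited by depth, and doublets remain in the data.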

Other observations

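Outside the members, other matrix genes of smooth muscle-like cells did not share a direction. Ccn3, another CCN family member, had 430.1 CPM in Gsdme-KO and 124 CPM in WT, a ratio of 3.47 (2.60 to 4.72). Col15a1, a basement membrane collagen, had 602 CPM in Gsdme-KO and 1378 CPM in WT, a ratio of 0.44 (0.39 to 0.49).

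Cluster 17 of the 25 met the marker count for fibroblasts, with all 8 detected, but stayed unnamed because its cells were shallow, with medians of 1024.5 UMIs in Gsdme-KO and 824 in WT, and none of those markers was among its 10 leading genes. Ccn2 had 391 CPM in Gsdme-KO and 681 CPM in WT there, a ratio of 0.57 (0.47 to 0.71), which is the opposite direction to clusters 0 and 6. Cthrc1 had 72 UMIs in Gsdme-KO and 18 in WT, a ratio of 1.60 (0.94 to 2.85). Il11 was low in finer cluster 17 of fibroblast-like cluster 0, a different group of cells, with 3.19 CPM in Gsdme-KO and 1.11 CPM in WT, against 37.8 and 9.82 CPM in finer cluster 0.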
